A study of Mus musculus with 9 samples.

Results

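The cytosolic ribosomal protein genes were followed in 9 RNA-seq libraries of dendritic cells from mouse spleen. The genes were the rows whose symbol is Rpl or Rps with a number and, where present, a short suffix, which leaves out the kinases named Rps6k. The rule found 78 of the 14862 genes in the table, 46 of the large subunit (Rpl) and 32 of the small subunit (Rps). There were 3 libraries each of cDC1, cDC2 and mcDC, all from C57Bl/6 mice of 8 to 12 weeks, with no treatment named in the labels. cDC1 and cDC2 are the conventional dendritic cell subsets, and the labels do not spell out mcDC. The labels give neither the sort markers nor whether libraries of a subset came from separate mice, so each p-value rests on the variation among libraries, part of which may be technical. The numbered library titles fall into 3 blocks, each with a cDC1, a cDC2 and an mcDC library. These blocks are called title runs 1, 2 and 3 and equal the replicate numbers, and what the libraries of a run have in common is not stated.

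The ribosome is built from a small subunit, which reads the mRNA, and a large subunit, which joins the amino acids. Each subunit is an assembly of ribosomal RNA and proteins that are needed in equal numbers, and cells keep the mRNAs of these proteins at similar high levels. Most of these mRNAs are short and begin with a run of pyrimidines (the 5' terminal oligopyrimidine tract), through which the TOR kinase and LARP1 set how strongly they are translated. Dendritic cells take up and present antigen, and resting spleen subsets are told apart by surface receptors and transcription factors rather than by the ribosome.

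The start regions of the genes that the results turn on are shown with their pyrimidine runs. Each window has 30 bases before and 30 bases from the annotated start, 5' to 3' on the gene's own strand, from RefSeq on GRCm38.p6. Capitals mark each unbroken run of at least 8 pyrimidines (C or T) anywhere in the window. A marked run is therefore not always at the start of the mRNA. That of Rpl4 lies wholly before the annotated start, and that of Rps26 and the later run of Rpl38 begin after it. Relative to the median ribosomal protein gene, a scale chosen after the data were seen, Rpl28, Rpl14 and Rps26 were called higher in cDC1 than in cDC2. Rps9 had lower RPKM in all cDC1 than in all cDC2 libraries. It was called on the scale of the median gene only when title run was in the fit. Rpl38 and Rps28 showed the largest differences between title runs, and Rpl4 was among the genes of smallest spread.
Rpl28, chr7:4792935-4792994, plus strand: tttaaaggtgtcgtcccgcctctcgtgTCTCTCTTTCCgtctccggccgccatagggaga
Rpl14, chr9:120571487-120571546, plus strand: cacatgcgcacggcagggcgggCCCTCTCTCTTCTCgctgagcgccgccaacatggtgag
Rps26, chr10:128626477-128626536, minus strand: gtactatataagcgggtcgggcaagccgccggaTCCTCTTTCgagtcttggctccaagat
Rps9, chr7:3704011-3704070, plus strand: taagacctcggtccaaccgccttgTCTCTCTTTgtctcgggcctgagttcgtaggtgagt
Rpl38, chr11:114668550-114668609, plus strand: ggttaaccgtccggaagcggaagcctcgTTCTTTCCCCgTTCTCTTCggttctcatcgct
Rps28, chr17:33824533-33824592, minus strand: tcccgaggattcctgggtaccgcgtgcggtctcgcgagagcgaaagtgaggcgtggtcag
Rpl4, chr9:64173357-64173416, plus strand: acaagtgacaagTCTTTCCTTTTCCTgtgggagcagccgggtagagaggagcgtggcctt
A run of this length was found in 33 of the 59 ribosomal protein genes with a sequence in the RefSeq table (55.9%) and in 26.1% of the 11700 genes of the data set with one. The letters CCGGAA or TTCCGG, which are each other's reverse complement, were in the 300 bases from 250 before to 50 after the start in 54.2% of these 59 genes and 28.6% of the 11700. The printed window of Rps28 holds no run of 8 pyrimidines, which says only that these letters are not in it.

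The values are RPKM, read numbers scaled to gene length in kilobases and to library size in M reads, from which whole reads could be recovered. Libraries held 5.14 to 12.4 M reads, and mcDC replicates 2 and 3 were the shallowest. Marker genes followed the labels: the summed RPKM of 10 cDC1 markers reached 1750 to 2128 in cDC1 against 211 to 257 for cDC2 and 445 to 882 for mcDC, and that of 10 cDC2 markers was 86.8 to 282, 1188 to 1222 and 554 to 875. The summed RPKM of 11 red pulp macrophage markers was 442 to 850 in mcDC, above the 120 to 232 of the other subsets, with 10 of 11 called higher than in cDC1. NK cell markers summed to 296 to 420 in mcDC, 114 to 193 in cDC1 and 249 to 280 in cDC2, with 5 of 9 called higher in mcDC than in cDC1. T cell markers summed to 115 to 143, 58.9 to 97.5 and 39.7 to 55.4 in the same order, with 3 of 10 called higher in mcDC than in cDC1. The log2 difference was above 0 for 6 of these 10, with a median of 0.13. Of all 11971 genes tested, 1141 were called higher in mcDC than in cDC1. The summed RPKM of 11 neutrophil markers was 156 to 1684 in cDC2, 14.8 to 48.5 in cDC1 and 16.5 to 48.2 in mcDC. Of these 8 were called lower in cDC1 than in cDC2, and of 8 monocyte markers 6 were called lower and 1 higher. Among all 11971 genes, 1285 were called lower and 1059 higher in that comparison. The part of these markers in the comparisons of the ribosomal protein genes was not tested. None of these markers was at 0 in all libraries. In bulk libraries, fewer cells of a type and less RNA per cell cannot be told apart.

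Ribosomal protein genes took up nearly the same share of the reads in the 3 subsets. In replicates 1, 2 and 3 the 78 genes held 5.60%, 5.59% and 7.24% of the reads of cDC1. In cDC2 they held 5.22%, 5.69% and 6.90%. In mcDC they held 4.32%, 5.61% and 8.30%. The mean share was 6.14 ± 0.947% for cDC1, 5.94 ± 0.869% for cDC2 and 6.08 ± 2.03% for mcDC (SD, n = 3), so the subsets overlapped throughout and mcDC spread the most. Replicate 3 was the highest library of every subset. By title run the shares were 5.04 ± 0.659%, 5.63 ± 0.0508% and 7.48 ± 0.732% (SD, n = 3), and every library of run 3 lay above every library of runs 1 and 2. Of the 75 genes tested, 75, 75 and 74 lay above the mean of their subset in replicate 3 of cDC1, cDC2 and mcDC, while among all 11971 genes tested 44.1%, 47.2% and 47.3% did so.

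**Figure D1:**
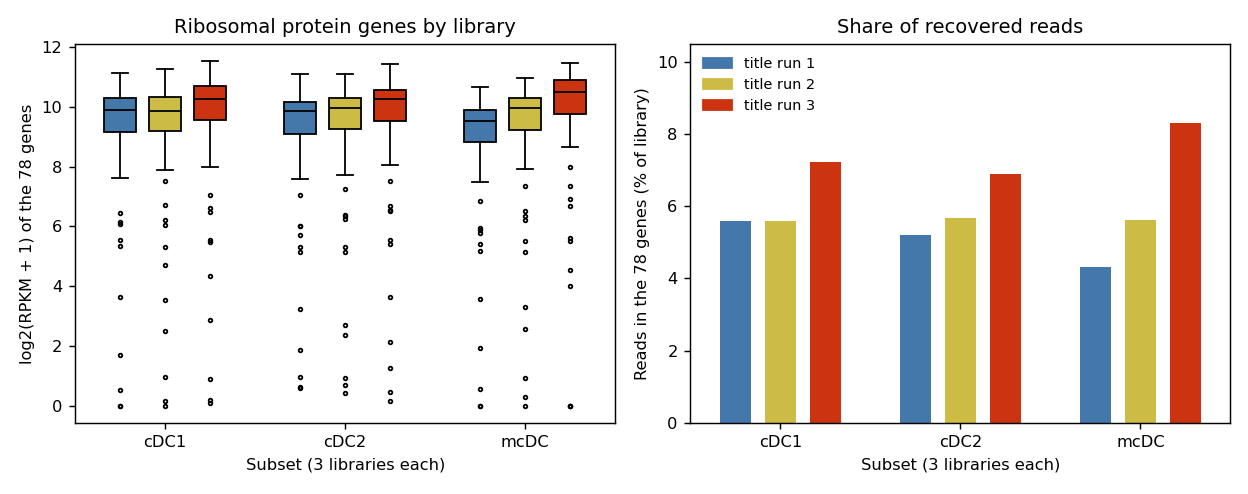
Levels of the 78 ribosomal protein genes in each library, coloured by title run: on the left log2(RPKM + 1) (box, quartiles with the median; whiskers to 1.5 times the box; points beyond them), on the right their share of the library's reads in percent. Run 3 is the highest library of every subset, at 6.90% to 8.30% of the reads.

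The order of the genes was stable from library to library. Spearman's rho of RPKM over the 78 genes was 0.91 to 0.99 in the 36 pairs of libraries, a description of genes that share a library and not a test. Per length, Rps9 of the small subunit was among the most abundant, with a mean of 2115 RPKM over the 9 libraries, as was Rpl10, a large subunit protein added late in assembly, at 1811 RPKM. Rps12 and Rps29 had means of 1783 and 1751 RPKM. The summed RPKM of Rps genes over that of Rpl genes was 0.893 to 0.953 in the 9 libraries.

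In the fit without title run, no ribosomal protein gene was called between any 2 subsets, and with title run as a block 3 were called between cDC1 and cDC2. The fit used limma on log2(RPKM + 1) over 11971 genes, of which 75 were ribosomal protein genes (Rpl34, Rpl39l and Rpl3l fell under the filter of more than 1 RPKM in at least 2 libraries), with Benjamini-Hochberg adjusted p under 0.05 as the call. Between mcDC and cDC1, 0 of 75 were called, where 15.4% of all genes tested were. Between mcDC and cDC2, 0 of 75 were called, with 3.66% of all genes. Between cDC1 and cDC2, 0 of 75 were called, with 19.6% of all genes. In each of the 3 comparisons 0 of 75 also reached an unadjusted p under 0.05 by limma, and limma-voom on the recovered reads called 0. With the title run as a replicate block, limma called 3 of 75 in cDC1 against cDC2 (24.6% of all genes), all higher in cDC1: Rpl28 by 0.48 (adjusted p = 0.0413), Rps4l by 0.65 (adjusted p = 0.0146) and Rps27l by 0.49 (adjusted p = 0.0491). The block called 0 of 75 in mcDC against cDC2 (6.46% of all genes), with 1 at an unadjusted p under 0.05. The median log2 difference of the 75 genes was -0.04 for mcDC less cDC1 (all genes 0.09), 0.01 for mcDC less cDC2 (all genes 0.06) and 0.05 for cDC1 less cDC2 (all genes -0.02). With median-of-ratios scaling the mcDC medians were -0.18 against cDC1 and -0.10 against cDC2 (all genes -0.03 and -0.04), and by voom -0.16 and -0.10, so the sign against cDC2 turned. Without mcDC replicate 3 they were -0.28 and -0.25, without mcDC replicate 1 0.19 and 0.21, without cDC1 replicate 3 0.09 against cDC1, and without cDC2 replicate 1 or 2 -0.10 or -0.02 against cDC2. The cDC1 less cDC2 median was -0.09 without cDC1 replicate 3, -0.06 without cDC2 replicate 1 and 0.17 without cDC2 replicate 3. The median standard error of a ribosomal protein gene was 0.25 without the block and 0.14 with it.

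**Figure D2:**
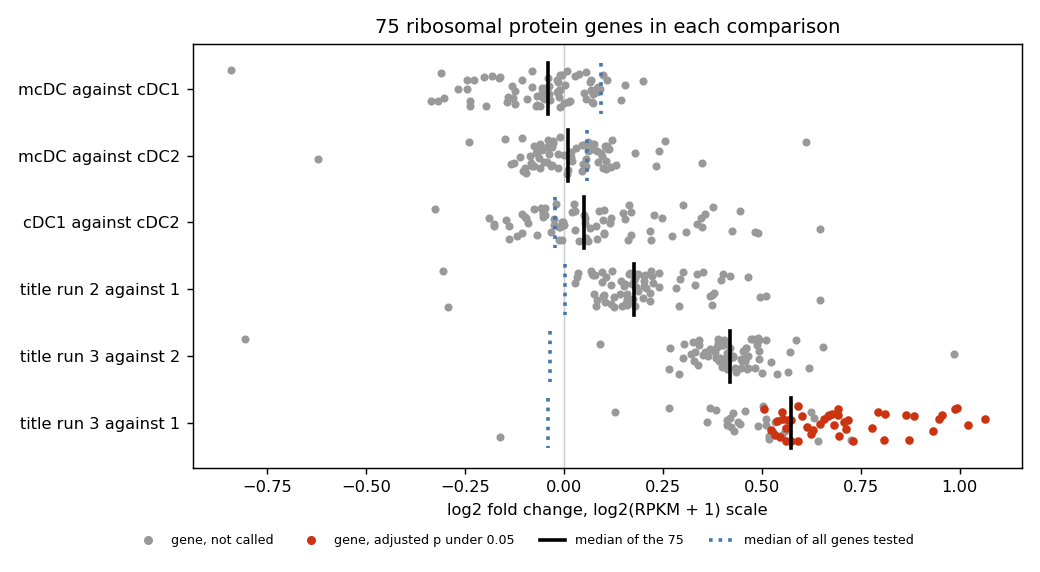
Log2 fold changes of the 75 ribosomal protein genes tested in the comparisons between subsets and between title runs; each point is a gene, red where limma's adjusted p is under 0.05, and lines mark the medians of the 75 and of all genes tested. The subset comparisons, without the block, centre near 0 with no called gene, and title run 3 against 1 centres at 0.57 with 45 called.

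The direction between mcDC and the other subsets turned over between title runs. Within run 1, 2 of 75 genes were higher in mcDC than in cDC1, with a median log2 difference of -0.36. Within run 2, 49 of 75 were higher, with a median of 0.05. Within run 3, 69 of 75 were higher, with a median of 0.20. Against cDC2 the corresponding counts were 6, 35 and 73 of 75, with medians of -0.25, -0.01 and 0.28. Few genes therefore kept a direction: Rpl22l1 was higher in mcDC than in cDC1 in each run and Rpl28 was among those lower (30.5% of all genes were higher in each run and 17.2% lower). Against cDC2, Rps25, Rps27l and Rps4l were among those higher in each run and Rps9 was lower (27% and 15% of all genes). Without regard to runs, 0 of 75 genes had mcDC libraries clear of those of cDC1 (19.5% of all genes above, 11% below) or of cDC2 (13.9% above, 7.7% below).

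Between cDC1 and cDC2, 27 of 75 genes were higher in cDC1 in each run and 16 lower (30.9% and 34.6% of all genes), and the libraries of 3 genes did not overlap. Rpl14 and Rps2 were higher in cDC1, where 21.5% of all genes were higher without overlap, and Rps9 was lower, where 24.6% were. Rpl14, a large subunit protein, had 542, 586 and 764 RPKM in cDC1, 413, 434 and 534 in cDC2, then 333, 434 and 831 in mcDC. All cDC1 libraries lay above all cDC2 libraries, and mcDC spanned both. Its log2 difference of cDC1 less cDC2 was 0.45 with a standard error of 0.30 (limma adjusted p = 0.388). Rps9, a small subunit protein that takes part in decoding accuracy, had 1837, 1717 and 2152 RPKM in cDC1, 2210, 2207 and 2734 in cDC2, then 1613, 1848 and 2713 in mcDC. The log2 difference was -0.32 with a standard error of 0.23 (limma adjusted p = 0.418). These values are from the fit without the block. With the block and all libraries, neither Rpl14 nor Rps9 was called. With the block but without mcDC replicate 3, both were called, where 4274 of all 11807 genes were. Rpl14 then had a standard error of 0.088 (limma adjusted p = 0.00667) and Rps9 one of 0.099 (limma adjusted p = 0.0381).

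Each gene was also set against the median ribosomal protein gene of the same library. This centring was chosen after the data were seen, and it takes out the part of each library's level that the genes share. On this scale 4 of 75 genes were called higher in cDC1 than in cDC2 and 0 lower, where 8.95% of all genes were called in either direction. Centring shifts all other genes by construction, and without it that share was 19.6%. With both centring and the block, 16 of 75 were called, and 2160 of all 11971 genes. Rpl28, a large subunit protein, lay above the library's median gene by 0.61, 0.88 and 0.86 log2 units in cDC1, 0.15, 0.28 and 0.39 in cDC2, then 0.23, 0.55 and 0.65 in mcDC. Its difference of cDC1 less cDC2 was 0.52 with a standard error of 0.12 (limma adjusted p = 0.0217). All cDC1 libraries lay above all cDC2 libraries, and mcDC spanned part of both ranges.

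Rps26, a small subunit protein near the mRNA exit, and Rpl14 were also called in cDC1 against cDC2 on the centred scale. Rps26 lay 0.33, 0.44 and 0.39 above the median gene in cDC1, -0.02, -0.01 and -0.01 in cDC2, then 0.05, 0.11 and 0.26 in mcDC, with a difference of 0.41 and a standard error of 0.09 (limma adjusted p = 0.0127). Rpl14 differed by 0.48 with a standard error of 0.13 (limma adjusted p = 0.0409). Between mcDC and cDC1, 1 of 75 was called, lower in mcDC, with 5.36% of all genes called. Between mcDC and cDC2, 0 of 75 were called by limma on this scale, 3 had an unadjusted p under 0.05, and 1.64% of all genes were called. Before centring, and without the block, Rpl28 and Rps26 were not called (limma adjusted p of 0.402 for Rpl28 and 0.439 for Rps26 in cDC1 against cDC2), while with the block Rpl28 was. Rps15 and Rpl21, picked after their values were seen, moved with the median gene: their distance from it had an SD of 0.04 and 0.03 log2 units over the 9 libraries.

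**Figure D3:**
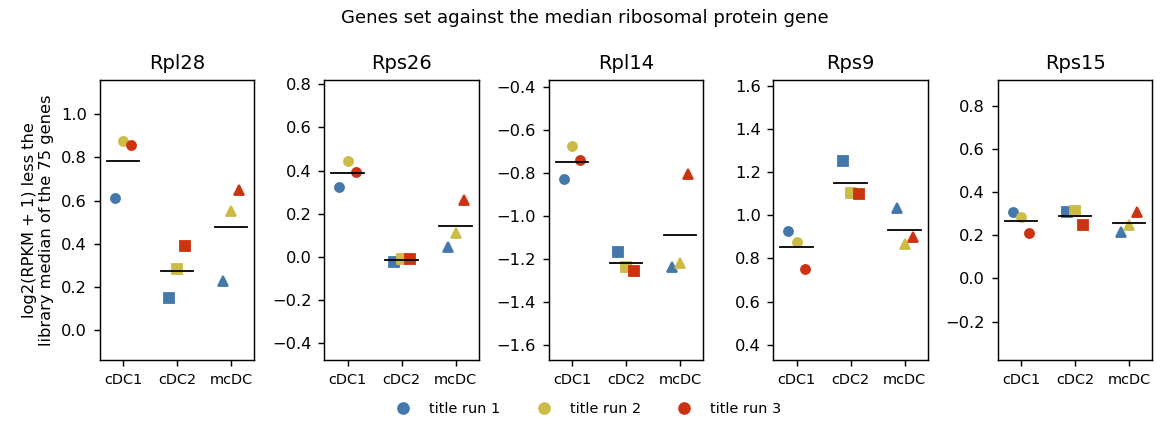
Log2(RPKM + 1) of 5 ribosomal protein genes less the library's median of the 75 genes tested; points are libraries coloured by title run and lines are subset means. Rpl28, Rps26 and Rpl14 lie higher in all cDC1 than in all cDC2 libraries, Rps9 lies lower, and Rps15 stays level.

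Between title runs nearly all ribosomal protein genes differed in the same direction. In run 3 against run 1, with the subset as a term in the fit, limma called 45 of 75 genes higher and 0 lower, where 2.87% of all genes were called higher and 2.1% lower. The median log2 change was 0.57, against -0.04 over all genes, and 73 of 75 genes were higher in run 3 in every subset (22.1% of all genes). The exceptions were Rpl7l1 and Rps27. The libraries of run 3 lay above all those of run 1 for 69 of 75 genes (8.3% of all genes) and above all those of run 2 for 67 (3.16%). They were above run 2 in every subset for 73 (17.3%). The median ratio of run 3 to run 1 was 1.31 for cDC1, 1.33 for cDC2 and 1.93 for mcDC. Whether that ratio differs between subsets was not tested, with 1 library of each subset in each run.

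The smaller steps gave no call. In run 3 against run 2, limma called 0 of 75 (0% of all genes), while 72 had an unadjusted p under 0.05, voom called 0, and the median was 0.42. In run 2 against run 1, limma called 0 of 75 (0.15% of all genes), 13 had an unadjusted p under 0.05, voom called 0, and the median was 0.18. The F test over the 3 runs called 0 of 75 (0.267% of all genes), with 73 at an unadjusted p under 0.05 and 63 called by voom (4.76% of all genes).

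The 45 calls of run 3 against run 1 lay close to the threshold, with a smallest limma adjusted p of 0.0248, and their number rested on single libraries and on the fit. It was 33 without cDC1 replicate 1, 1 without cDC1 replicate 2, 1 without cDC1 replicate 3, 0 without any 1 of the 3 cDC2 replicates, 1 without mcDC replicate 1, 0 without mcDC replicate 2 and 4 without mcDC replicate 3. In these fits the median change was still 0.45 to 0.65, with 69 to 73 genes at an unadjusted p under 0.05. It was 72 by voom (6.85% of all genes), 11 after quantile normalization (median change 0.11, with 53 of 75 above 0), 3 with no filter on low values and 0 without a trend in the prior variance. Centred on the median ribosomal protein gene, 12 of 75 were higher and 3 lower in run 3 (0.852% and 52.6% of all genes, which this centring shifts by construction).

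Rps28, a small subunit protein, showed the largest step. It had 1124, 1140 and 1853 RPKM in runs 1, 2 and 3 of cDC1, 729, 1116 and 1451 in cDC2, then 659, 1194 and 1838 in mcDC. Run 3 was the highest in every subset and did not overlap run 1 or run 2. The log2 change of run 3 over run 1 was 1.06 with a standard error of 0.17 (limma adjusted p = 0.0294). Rpl38, a large subunit protein known for its part in translating Hox mRNAs, had 609, 599 and 997 RPKM in cDC1, 511, 716 and 951 in cDC2, then 445, 744 and 1220 in mcDC. Its change was 1.02 with a standard error of 0.16 (limma adjusted p = 0.0292).

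Rpl3, which lies near the peptidyl transferase centre, was among the genes that moved least. It had 969, 948 and 1125 RPKM in cDC1, 920, 941 and 1038 in cDC2, then 793, 918 and 1285 in mcDC. The change of 0.36 with a standard error of 0.12 was not called (limma adjusted p = 0.102). Rpl7a changed by 0.37 (limma adjusted p = 0.0788) and Rpl7l1 by 0.13 (limma adjusted p = 0.49), neither of them called.

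Shorter genes showed the larger steps. The gene length behind each RPKM, recovered from the steps of the values, had a median of 759 bases in the 78 genes (327 to 5141) and of 2956 over the genes with reads. Spearman's rho of length and the change of run 3 over run 1 was -0.48 over the 75 genes and -0.41 over all 11971, where genes share the same libraries and no test applies. Among genes above a mean of 10 RPKM, the 24 shortest, up to 599 bases, had a median change of 0.72, and the 24 longest, from 942 bases, had a median of 0.54. Rps15a, with the longest recovered length at 5141 bases, changed by 0.60 (limma adjusted p = 0.0429). Recovered lengths were not compared with those of the mRNAs. For cDC1 less cDC2 the same rho was -0.16 over the 75 genes and -0.01 over all genes.

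**Figure D4:**
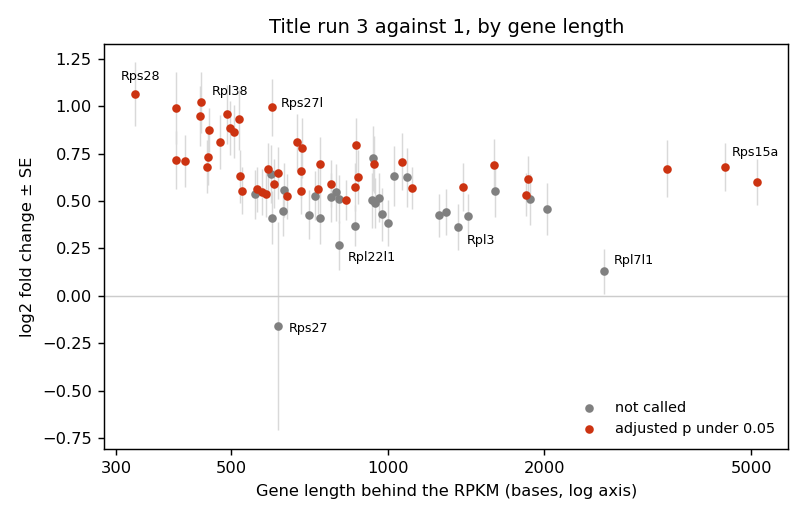
Log2 fold change of title run 3 over run 1 with its standard error for the 75 ribosomal protein genes tested, against the gene length behind the RPKM on a log axis; red points have a limma adjusted p under 0.05. The shortest gene, Rps28 at 327 bases, has the largest change, 1.06, and 74 of the 75 lie above 0.

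Other genes moved with the title run as well. Of 15 genes induced by tissue dissociation, 8 were called lower and 2 higher in run 3 than in run 1, and their summed RPKM was 5230 to 7124 in run 1, 4000 to 4564 in run 2 and 4170 to 4979 in run 3. Of 11 erythroid and platelet genes found, 5 were called higher and 0 lower, with a summed RPKM of 6.38 to 13.1 in run 1, 24.0 to 168 in run 2 and 21.5 to 178 in run 3. Of 11 neutrophil genes, 4 were called higher and 0 lower, with 14.8 to 156 RPKM in run 1, 22.5 to 986 in run 2 and 48.2 to 1684 in run 3. Of 10 T cell genes tested 3 were called higher, and of 11 red pulp macrophage genes 3. Among all genes 2.87% were called higher and 2.1% lower. Calls over all genes also rested on single libraries and on the fit. They numbered 595, ranged from 16 (without cDC2 replicate 3) to 421 (without cDC1 replicate 1), and were 5 without a trend in the prior variance. No gene of these lists was at 0 in all libraries. The part of these cells and signs in the change of the ribosomal protein genes was not tested.

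Several members are alternative copies of another member. Rpl36al and Rpl36a code for nearly the same protein: Rpl36al had 322, 350 and 502 RPKM in cDC1, 237, 293 and 387 in cDC2, then 192, 342 and 526 in mcDC. On the log2 scale Rpl36al less Rpl36a was -0.28 ± 0.08 for cDC1, -0.65 ± 0.03 for cDC2 and -0.55 ± 0.02 for mcDC (SD, n = 3). The copy thus stood closest to Rpl36a in all 3 libraries of cDC1. Rpl22l1 less Rpl22 was -1.13 ± 0.35, -1.01 ± 0.16 and -0.99 ± 0.47 in the same order, which overlap. Rpl7l1 lay far under Rpl7, by -4.73 ± 0.17, -4.95 ± 0.10 and -4.86 ± 0.39. Rps4l lay under Rps4x by -6.88 ± 0.30, -7.55 ± 0.36 and -6.85 ± 0.42, at 5.53 to 22.1 RPKM.

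Rps27l was the more abundant listed copy of its pair. It had 87.0, 105 and 130 RPKM in cDC1, 50.9, 81.5 and 102 in cDC2, then 59.9, 91.0 and 162 in mcDC, while Rps27 had 2.22 to 6.21 RPKM in 8 libraries and was listed at 0 in mcDC replicate 3. Rpl34 had 0 to 9 reads in a library and Rpl3l, a muscle copy of Rpl3, 0 to 28 reads, with its highest values, 0.545, 0.598 and 1.41 RPKM, in cDC2. Rpl39l, a testis copy of Rpl39, had 62 reads in mcDC replicate 3 and 0 to 7 reads in each other library. An annotation of the mouse genome (GENCODE M21) names 262 pseudogenes after 51 of the 78 genes, up to 24 for Rpl31. How the counting shared reads between a gene and its copies is not given in the sources used here, so levels of single genes, and those of the low members above all, are uncertain.

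Ribosomal proteins whose symbols fall outside the rule were read from the same fit. Of 7 such genes, 4 were called higher in run 3 than in run 1 and 0 lower, with a median of 0.58. Of all genes 2.87% were called higher. Between any 2 subsets, limma called 0 of 7 without the block. Rplp2, a protein of the ribosomal stalk, had 749, 715 and 1222 RPKM in cDC1, 692, 913 and 1124 in cDC2, then 590, 903 and 1480 in mcDC, and changed by 0.91 between runs 1 and 3 (limma adjusted p = 0.0315). Fau, which is made as a fusion with a protein like ubiquitin, changed by 0.61, and Rplp0, the base of the stalk, by 0.42 without a call.

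Other genes of translation had smaller or negative medians in run 3 against run 1, where 2.87% of all genes were called higher and 2.1% lower. Elongation factors had a median of 0.46 (2 of 9 called higher), initiation factors 0.26 (2 of 31), nascent chain complexes 0.25 (1 of 11), RNA polymerase I and its factors 0.24 (0 of 15) and ribosome assembly factors 0.34 (7 of 68), with no gene of these lists called lower. Regulators of the TOR, LARP and MYC pathways had a median of -0.17, with 1 of 30 called higher and 1 lower, and genes that rescue stalled ribosomes one of -0.14, with 0 of 16 called. Outside cytosolic translation, 75 subunits of the mitochondrial respiratory chain had a median of 0.58 (21 called higher), 78 mitochondrial ribosomal proteins 0.43 (8) and 18 proteasome core subunits 0.54 (3), again with no gene called lower. No difference between these lists was tested.

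Between subsets, 4 of 30 regulators of the TOR, LARP and MYC pathways were called higher and 4 lower in cDC1 against cDC2. There 19.6% of all genes were called, and the median log2 difference of the 30 was -0.002. Of 9 elongation factors 1 was called higher and 1 lower there, and the reverse pair in mcDC against cDC1 (15.4% of all genes). Eef1b2, an elongation factor named after its values were seen, which recharges elongation factor 1A with GTP, had 669, 736 and 899 RPKM in cDC1, 265, 304 and 364 in cDC2, then 244, 341 and 523 in mcDC. All cDC1 libraries lay above all others. The log2 difference was 1.30 for cDC1 less cDC2 with a standard error of 0.26, and -1.11 for mcDC less cDC1, both called. Eef2k, the kinase that inhibits elongation factor 2, went the other way, with 7.72, 5.32 and 5.47 RPKM in cDC1, 18.2, 16.3 and 10.9 in cDC2, then 21.7, 16.5 and 8.91 in mcDC. Its log2 difference was -1.16 for cDC1 less cDC2 and 1.16 for mcDC less cDC1, with a standard error of 0.31, both called.

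**Figure D5:**
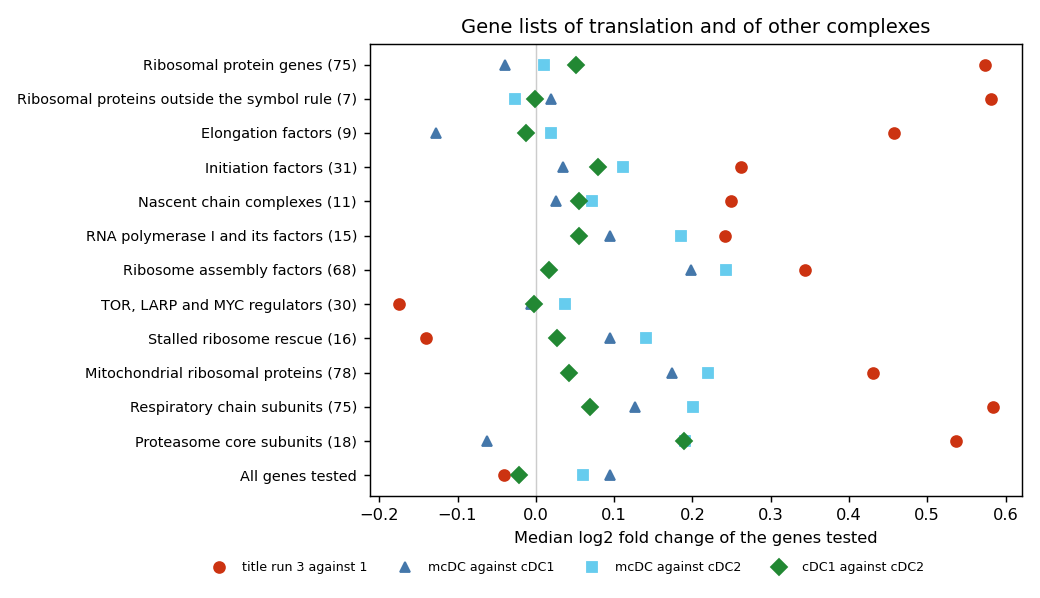
Median log2 fold change of each gene list, with the number of genes tested in brackets, in title run 3 against 1 and in the 3 subset comparisons. The ribosomal protein genes, at 0.57, stand with the respiratory chain subunits at 0.58 in the run comparison, while all genes tested have a median of -0.04.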

How the data were processed

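RNA from 9 libraries of sorted spleen dendritic cells was measured by sequencing. The authors deposited RPKM values as 1 joint table, and 8 single-library files equal its columns. No header gives the unit, so it was inferred from the values: whole reads were recovered for 100% of nonzero values within a tolerance of 0.0001. The genome build is mm8, per the submitters' processing notes; the aligner, counting tool and annotation are not given in the sources used here. RefSeq sequences are of GRCm38.p6, and no coordinate was taken from the files.

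Groups came from the cell type labels. The test was limma (version 3.58.1, under R 4.3.3), applied to log2(RPKM + 1) with a trend in the prior variance and Benjamini-Hochberg adjustment over 11971 genes above 1 RPKM in at least 2 libraries. Subsets were fitted with 6 residual degrees of freedom, and title runs with the subset as a term, with 4. Fold changes on this scale understate changes of low genes. A count model was replaced by limma-voom on the recovered reads as an alternative. Other alternatives were the filter, pseudocount, scaling, trend, a block for title run, and omission of single libraries. Scripts were tested on simulated data. Counting precision is limited by 5.14 to 12.4 M reads a library.

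The genes, lists and tests were chosen with earlier results of these data known. Named genes were both genes of each pair of copies, the 5 most and least abundant, the 5 of largest and smallest spread above a mean of 10 RPKM, ribosomal proteins outside the symbol rule and genes called between subsets; others were picked after their values were seen. A few genes are in the counts but not reported here by name. Title runs equal the replicate numbers. Deviations from the subset means correlated, within a run, at 0.299, 0.134 and 0.375 between cDC1 and cDC2 and at 0.458, 0.153 and 0.343 between cDC2 and mcDC, so the numbers were taken to pair these subsets. Between cDC1 and mcDC they correlated at 0.347, 0.0981 and 0.300, where 1 pair lay under 0.1 and no pairing was assumed. That pair still lay above every pair of different runs. With the block, 0 of 75 ribosomal protein genes were called in mcDC against cDC1, and 2474 of all 11971 genes. Pairs of different runs lay at -0.448 to 0.031.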

Additional observations from a re-analysis of the deposited data

How the results depend on the processing

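Every count of called genes between subsets was 0 in the fit without a block and stayed at 0 under most alternatives. Between cDC1 and cDC2 it became 1 with no filter, 2 after quantile normalization and 4 after centring on the median ribosomal protein gene. Between mcDC and cDC1 it became 1 with no filter and 1 after centring, and between mcDC and cDC2 it became 1 with no filter. Leaving out 1 library at a time gave 0 for cDC1 against cDC2 and for mcDC against cDC2 and 0 to 1 for mcDC against cDC1, with 1 (Rpl14) without mcDC replicate 3. The 45 calls of run 3 against run 1 became 72 by voom, 15 (12 higher, 3 lower) after centring, 11 after quantile normalization, 3 with no filter and 0 without a trend, and ranged from 0 to 33 with 1 library left out. The F test of runs went from 0 to 63 by voom, 9 after centring, 1 with a filter of 5 RPKM and 1 with median-of-ratios scaling, and from 0 to 1 with 1 library left out. Centring takes out the shared part of the run difference by its construction, and on that scale Rpl3 (-0.21), Rpl7a (-0.20) and Rpl7l1 (-0.44) turned from higher to lower in run 3; it was chosen after the data were seen, and changes of single genes other than the ribosomal protein genes are not given on it, since it shifts them all. Quantile normalization moved the median log2 level from 10.25 to 10.02 in cDC1 replicate 3 and from 10.28 to 10.05 in cDC2 replicate 3; the shifts in mcDC were larger, from 10.48 to 10.02 in replicate 3 and from 9.54 to 9.96 in replicate 1. With the title run as a replicate block, the count was 3 for cDC1 against cDC2 (Rpl28, Rps4l and Rps27l, all higher). For mcDC against either subset it was 0, as without the block. The block without mcDC replicate 3 gave 7 (6 higher) for cDC1 against cDC2 and 6 (all lower) for mcDC against cDC1. Of all 11807 genes tested without that library, 4274 and 3003 were called. The block with centring gave 16 (15 higher, 1 lower) and 4 (all lower), with 2160 and 1653 of all 11971 genes called. Rps9 was the 1 gene called lower in cDC1 than in cDC2 in both fits (limma adjusted p = 0.0381 and 0.00993).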
